A study of Caenorhabditis elegans with 2 samples.

Results

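The regions described here are 535 reproducible binding peaks of the CEH-2-GFP fusion whose summits lay in promoters read from one strand only. They were selected on the authors' optimal list under the irreproducible discovery rate (IDR), a method that keeps peaks ranked alike in replicates, and on position. For every annotated start of a protein-coding transcript, the promoter was taken as 1000 bp before it and 200 bp after it. A summit counted when every window that covered it belonged to genes of the same strand and when it lay over 300 bp from each tRNA, snoRNA and snRNA gene. The 535 regions were 37.4% of the 1430 nuclear reproducible peaks (95% Wilson interval 34.9 to 40.0). They fell in windows of 529 protein-coding genes, or 2.65% of the 19973 on the nuclear chromosomes. Chromatin came from whole hermaphrodite Caenorhabditis elegans late embryos of strain OP323, a transgenic line that stably expresses CEH-2 with a C-terminal GFP-FLAG tag, and was precipitated with an antibody against GFP. Collection followed egg bleaching, which synchronizes the worms, by 5 hours, in 1 group of 2 biological replicates with no second condition. What promoter drives the tagged gene, and in how many copies, was not given in the sources used here, and the control was not analysed here. Without read counts in the peak lists the depth is unknown, and all intervals below cover counting error over peaks or genes.

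CEH-2 is a homeodomain transcription factor of the empty spiracles and EMX family, whose members recognise TAAT cores in DNA and are known from head and nervous system development. In the worm, neighbouring genes often face away from each other and share a short intergenic stretch, so that a peak there cannot be given to a single gene by position. A promoter of one strand only reduces that uncertainty, since a gene facing away can still lie beyond the window. Assignment by position also does not show which gene a bound site acts on. Chromatin immunoprecipitation from whole embryos averages over all cells, so that more cells bound and stronger binding per cell cannot be told apart.

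The sequences of the strongest summits are printed first, as the extremes of signal and not as typical members. Each is a window of the summit and 50 bp to either side, read 5′ to 3′ on the strand of the assigned gene, from the RefSeq genome of WBcel235 (ce11). Capitals mark GAGAGA or GCGGGA on either strand, including overlapping copies, and the eel-1 window holds neither. The eel-1 window also holds sequence that is repeated in the genome, as described below. The K12H4.5 window is chrIII:8043906-8044006 on the plus strand, the M01F1.9 window is chrIII:3499985-3500085 on the minus strand, and the eel-1 window is chrIV:3050624-3050724 on the minus strand.
K12H4.5: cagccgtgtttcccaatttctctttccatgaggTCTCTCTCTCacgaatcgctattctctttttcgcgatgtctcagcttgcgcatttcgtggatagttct
M01F1.9: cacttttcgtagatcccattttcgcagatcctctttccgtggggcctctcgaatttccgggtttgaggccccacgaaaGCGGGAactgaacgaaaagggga
eel-1: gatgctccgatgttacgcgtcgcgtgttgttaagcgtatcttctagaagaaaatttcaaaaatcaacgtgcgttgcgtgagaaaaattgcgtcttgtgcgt

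K12H4.5, printed above, and T13C5.6 held the GA repeat GAGAGA on one strand or the other, with signals of 1749 and 428. The next windows show further members outside annotated exons that held it at lower signals, in capitals on the strand printed. They are windows of 50 bp to either side of the summits at Y59A8B.24 (chrV:17951436-17951536, plus strand), at sms-2, which encodes a sphingomyelin synthase (chrX:949614-949714, minus strand), and at lin-66 (chrIV:13887614-13887714, plus strand).
Y59A8B.24: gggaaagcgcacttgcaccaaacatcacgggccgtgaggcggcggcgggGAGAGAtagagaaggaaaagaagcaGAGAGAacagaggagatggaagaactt
sms-2: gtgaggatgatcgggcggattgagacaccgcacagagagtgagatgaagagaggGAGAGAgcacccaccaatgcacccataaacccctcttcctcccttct
lin-66: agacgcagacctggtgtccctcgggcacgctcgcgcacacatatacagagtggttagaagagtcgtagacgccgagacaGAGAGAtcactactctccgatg

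Members that held GGCCAC, with GGCCAC or its reverse complement in capitals, are shown for rom-4 of the rhomboid family (chrIV:16995552-16995652, plus strand) and for pfd-5 (chrIII:7198989-7199089, minus strand), which encodes a prefoldin subunit and shares its window with exos-9.
rom-4: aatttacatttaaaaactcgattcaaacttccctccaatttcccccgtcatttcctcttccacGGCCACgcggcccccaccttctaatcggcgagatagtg
pfd-5: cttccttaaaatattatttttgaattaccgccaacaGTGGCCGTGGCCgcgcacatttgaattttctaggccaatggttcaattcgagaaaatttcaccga

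Longer runs also recurred between members at unrelated genes. In the 81 bp windows below, capitals mark GAGACGCAGA at nurf-1 (chrII:14405313-14405393, plus strand) and ife-4 (chrX:1103883-1103963, plus strand), TGGCCTAGAA at sas-4 (chrIII:8319276-8319356, minus strand) and sluh-7 (chrV:10356079-10356159, minus strand), and TCCGAGAGGA at thoc-5 (chrIII:5349402-5349482, minus strand) and cyn-10 (chrII:6913468-6913548, minus strand), each as the run itself or its reverse complement.
nurf-1: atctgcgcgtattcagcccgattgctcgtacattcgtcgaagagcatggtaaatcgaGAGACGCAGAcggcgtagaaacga
ife-4: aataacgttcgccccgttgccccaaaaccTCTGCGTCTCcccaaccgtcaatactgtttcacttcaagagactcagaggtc
sas-4: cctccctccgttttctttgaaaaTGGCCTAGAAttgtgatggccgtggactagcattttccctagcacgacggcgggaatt
sluh-7: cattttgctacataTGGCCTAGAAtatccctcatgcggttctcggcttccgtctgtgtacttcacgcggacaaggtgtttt
thoc-5: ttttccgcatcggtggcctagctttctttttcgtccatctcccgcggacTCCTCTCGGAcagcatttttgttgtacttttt
cyn-10: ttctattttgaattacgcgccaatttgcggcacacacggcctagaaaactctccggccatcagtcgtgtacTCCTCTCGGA

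The homeodomain cores TAATTA and TAATGA, or their reverse complements, in capitals, are shown in windows of 50 bp to either side of the summits at F26F4.8 (chrIII:4905513-4905613, minus strand) and R166.2 (chrII:10538097-10538197, minus strand), since they were rare among the members.
F26F4.8: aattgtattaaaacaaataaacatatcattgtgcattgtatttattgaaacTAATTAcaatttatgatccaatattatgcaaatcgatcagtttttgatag
R166.2: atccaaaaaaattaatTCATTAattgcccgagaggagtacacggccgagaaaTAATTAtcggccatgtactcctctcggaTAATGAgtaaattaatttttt

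The strength of a peak was the authors' signal value, whose scale was not given in the sources used here, and it is used only to describe and order peaks. Since strength was among the values that selected the members, it was not tested. Pooled signal among the 535 members ran between 86.3 and 1749 with a median of 125, and 50% of them lay between the quartiles 102 and 178. Divergent promoters had the higher median, 143 for the 296 reproducible summits in divergent promoters, where windows of both strands overlapped, and 109.8 for the 381 reproducible summits outside promoter windows. In one-strand promoters, 4324 weaker peaks of the pooled list that did not enter the reproducible set had a median of 38.5. Members were therefore 11.0% of the 4859 pooled peaks that met the location rule. The weakest members, at chmp-7, T10D4.6 and Y97E10C.1, had signals of 86.3, 86.5 and 86.5, and the strongest peaks just outside the set, at vav-1, miz-1 and bed-2, had 86.3 each.

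K12H4.5 had the strongest peak, with replicate signals of 764 (replicate 1) and 988 (replicate 2), a pooled signal of 1749, and a summit 531 bp upstream of its start. M01F1.9 came second with 591 and 643 and a pooled signal of 1236, and its summit lay 978 bp upstream, close to the limit of the window and inside an intron of the neighbouring gene M01F1.8. These peaks stood apart from the rest, since the next signal was 559. That summit and the fifth, of 455, lay 570 and 771 bp upstream of eel-1, which encodes a HECT-type E3 ubiquitin ligase, and both overlapped the same replicate peaks of 248 and 309.5. Y50D4C.5 had 471, T13C5.6 on X had 428, the ribosomal protein gene rps-24 had 418, and the shared upstream region of F10E9.11 and sas-4, a centriole assembly gene, had 406. Y54E10A.10 and Y32B12B.4 each had 404. The remaining places among the 15 strongest went to the mitofusin gene fzo-1 (399), the THO complex gene thoc-5 (377), W03H9.2 (372), T07F10.3 (369) and C34C12.9 (365). In 13 of these 15 peaks replicate 2 had the higher value, and T13C5.6 and thoc-5 were the exceptions.

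**Figure D1:**
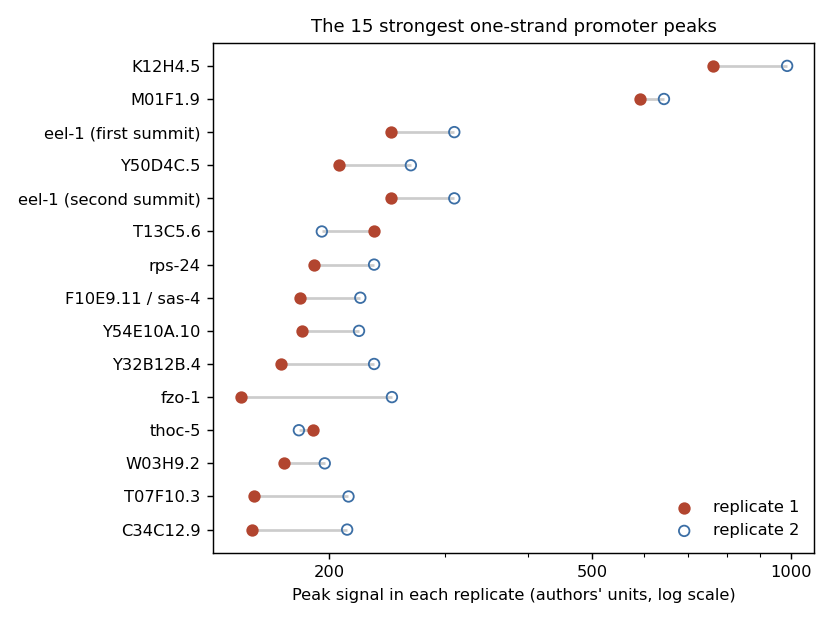
Signal of the 15 strongest one-strand promoter peaks in replicate 1 (filled) and replicate 2 (open), in the authors' units on a log axis, ordered by pooled signal from the top. K12H4.5 (764 and 988) and M01F1.9 (591 and 643) lie to the right of all others, and the eel-1 summits share their replicate peaks.

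Nearly all members were found in both replicates, and their order differed in part. Of the 535 members, 534 overlapped a peak in each replicate list, and K02E2.11 lacked one in replicate 2. Replicate 1 values ran between 22.2 and 764 with a median of 64.6, and replicate 2 values between 23.4 and 988 with a median of 66.9. The pooled signal was close to the sum of the replicate values, with a median ratio of 1.00 (quartiles 0.982 and 1.01). Spearman's rho across the 534 members was 0.714, beside 0.811 across 296 divergent summits and 0.519 across 380 summits outside promoter windows, as descriptions, since peaks share the same 2 libraries. Of the members, 461 (86.2%) were among the 1430 strongest nuclear peaks of replicate 1 and 456 (85.2%) among those of replicate 2, with 390 (72.9%) in both. The largest gaps in rank towards replicate 1 were at klp-7, a kinesin gene of the microtubule-depolymerising type (69.9 in replicate 1, 23.4 in replicate 2), sur-7 (62.2, 29.9) and the syndecan gene sdn-1 (60.7, 30.4). Towards replicate 2 they were at Y53C10A.6 (22.2 in replicate 1, 58.9 in replicate 2), the ubiquitin-conjugating enzyme gene ubc-25 (25.8, 63.8) and the cyclin-dependent kinase gene cdk-7 (26.8, 68.8). All of these had pooled signals of 97.5 or less, near the lower limit of the set. Because the pooled signal is close to the sum of the replicate values, a member near that limit with a low value in one replicate has a high value in the other by selection.

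**Figure D2:**
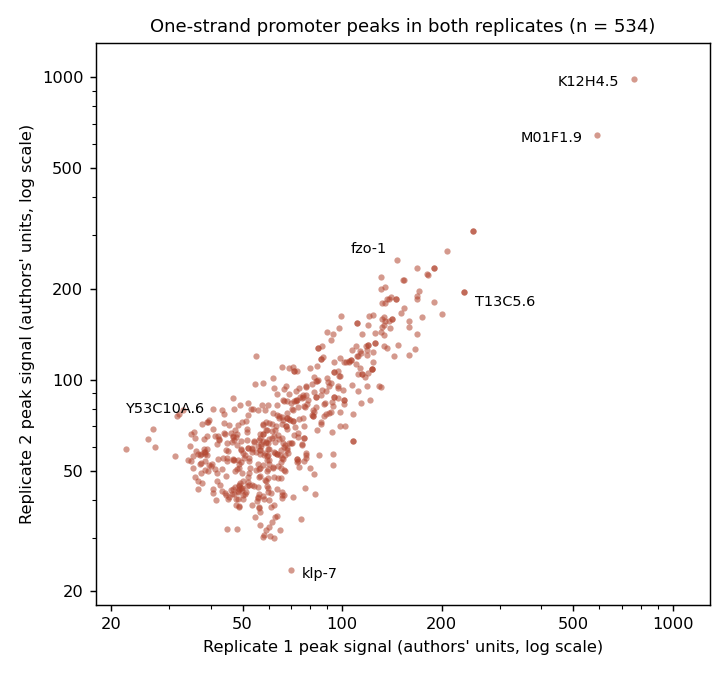
Signal of the strongest overlapping peak in replicate 1 (x) and replicate 2 (y) for 534 one-strand promoter peaks, in the authors' units on log axes, 1 point per peak. The 2 strongest peaks are high in both replicates, and klp-7 (69.9 and 23.4) and Y53C10A.6 (22.2 and 58.9) lie off the main cloud.

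Most members belonged to 1 gene. A single gene's windows covered 512 summits and windows of 2 genes covered 23, and 277 members faced plus-strand genes and 258 minus-strand genes. Among the 529 genes, 500 had 1 summit, 29 had 2 and none had more. Paired summits were a median of 206 bp apart, and in 25 of the 29 genes both overlapped the same peak in each replicate, so that these pairs hold no separate replicate values. Examples are the pairs at rps-24 (418 and 247), at the histone methyltransferase gene set-25 (141 and 123) and at the cofilin gene unc-60 (119 and 90.0). The chromatin remodelling gene nurf-1 was different, with summits of 187 and 122 that lay 5571 bp apart at different annotated starts.

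Where in the window a summit lay was not fixed by the rule. The median member summit was 268 bp upstream of the nearest start, with quartiles at 466 and 142 bp, against 147 bp for divergent summits and 262 bp for the weak one-strand peaks. Within 250 bp upstream lay 236 of 535 members, or 44.1% (40.0 to 48.3), against 222 of 296 divergent summits, or 75.0% (69.8 to 79.6). The member share was lower by 30.9 percentage points (two-sided Fisher's exact test, adjusted p = 3.56e-17 over 9 tests). Divergent windows have starts on both sides of a summit, so their nearest distances can be shorter by construction. Among the weak peaks the share was 30.5% of 4324, and members were higher by 13.7 points (exact test, adjusted p = 1.55e-09). That second difference shrank to 46.2% of 433 members against 42.1% of weak peaks when only intergenic summits were taken (exact test, adjusted p = 0.122), an alternative added after seeing the data. Only 16 members (2.99%) lay downstream of the start, against 8.11% of divergent summits and 18.3% of weak peaks, among them the Raf kinase gene lin-45 at 11 bp and the cytochrome c oxidase gene cox-5B at 17 bp. These p-values treat peaks as units and say nothing of the spread between replicates.

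**Figure D3:**
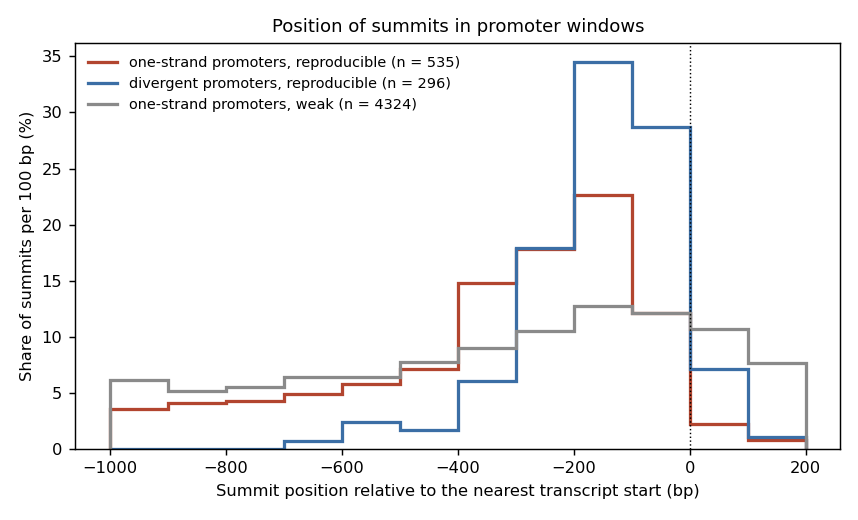
Share of summits (%) in each 100 bp of distance to the nearest transcript start (x, bp, negative upstream) for one-strand members (n = 535), divergent promoter summits (n = 296) and weak one-strand peaks (n = 4324). Members peak between 200 and 100 bp upstream with 22.6% and drop to 2.24% in the first 100 bp downstream, where weak peaks hold 10.7%.

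By annotation of protein-coding genes, 433 members (80.9%) were intergenic, 75 (14.0%) were intronic, 18 (3.36%) were in 5′ UTRs, 5 in 3′ UTRs and 4 (0.748%) in coding exons. Coding exons held 17.4% of the weak peaks, a difference of 16.7 points (exact test added after seeing the data, adjusted p = 5.74e-35 over 7 tests). Of the intronic members, 62 lay in an intron of a gene whose own promoter window covered them. The strongest of these were at K05C4.2 (292), duo-3 (254) and the phosphatase subunit gene pptr-2 (246), and all 3 lay upstream of an internal start. In all, 68 members (12.7%) were nearest to an internal start, against 24.2% of weak peaks (exact test, adjusted p = 9.22e-10). Introns held 3.38% of divergent summits, 10.6 points fewer than among members (adjusted p = 7.32e-07 over 5 tests, exact). A divergent summit needs a start of each strand within reach, so intronic positions can be rarer there by construction. Internal starts were nearest to 2.70% of divergent summits, which was not tested for the same reason. The next gene upstream was on the same strand for 311 members (58.1%) and on the opposite strand for 224 (41.9%), and the median signals of 122 and 129 and median distances of 267 and 270 bp were close in these subsets.

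One-strand members were found on the X chromosome far more often than divergent summits. X carried 123 members, or 23.0% (19.6 to 26.7), against 6 divergent summits, or 2.03% (exact test added after seeing the data, adjusted p = 2.60e-18). Weak one-strand peaks were on X in 18.4% of cases, 4.60 points fewer than members (exact test, adjusted p = 0.0165). The windows themselves were spread unevenly, since one-strand windows summed to 23.7 Mb with 15.6% on X and divergent windows to 2.31 Mb with 5.43% on X. Per Mb of one-strand window there were 33.2 members on X and 20.6 on the autosomes, whereas divergent windows held 47.8 reproducible summits per Mb on X and 133 on the autosomes. Among autosomes the density of members was lowest on V, with 13.9 per Mb, and highest on I, with 29.1 per Mb. Relative to the length of its windows, X was therefore dense in members and sparse in divergent summits. The strongest X members were at T13C5.6 (428), the 14-3-3 gene ftt-2 (299) and sms-2 (225). X members had a median signal of 115 and a median GC content of 53.5%, against 128 and 49.5% for autosomal members.

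**Figure D4:**
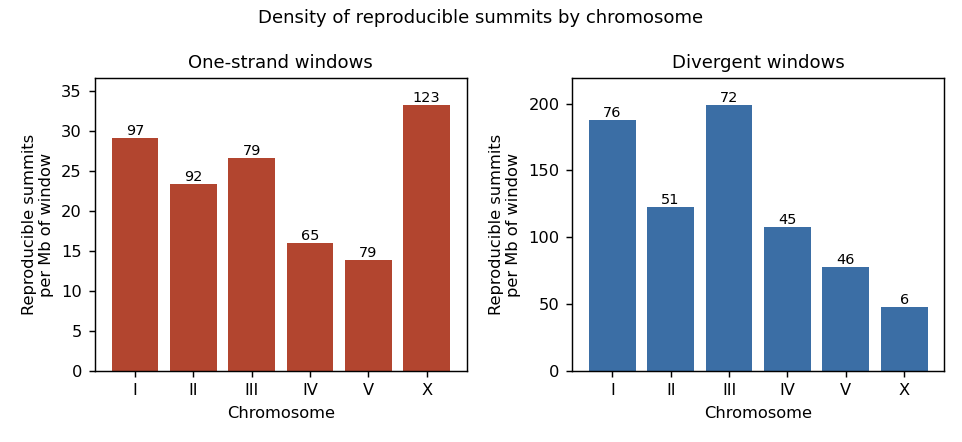
Reproducible summits per Mb of promoter window on each chromosome, for one-strand windows (left) and divergent windows (right), with the number of summits above each bar. The panels have different scales. X is the densest chromosome in one-strand windows (33.2 per Mb) and the sparsest in divergent windows (47.8 per Mb).

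Member windows were richer in G and C than their surroundings. The median GC content within 50 bp of the summit was 50.5%, against 34.7% in windows 300 bp to either side, 47.5% at divergent summits and 42.6% at weak peaks. The GAGAGA repeat printed above stood in 137 member windows, or 25.6% (22.1 to 29.5), counting either strand and overlapping matches. It stood in 13.5% of divergent windows (exact test, adjusted p = 0.000192) and in 14.6% of weak ones (adjusted p = 1.55e-09). Windows 300 bp upstream and downstream of the members held it in 5.98% and 8.41%, and windows of the same length at the members' median distance upstream of all 19973 genes held it in 6.20%. As a description, the repeat was thus commoner at member summits than beside them or in either comparison set. It came from an earlier scan of the same peaks, so the p-values are no independent evidence. It was less frequent among strong members, with 16.8% of the stronger 268 and 34.5% of the weaker 267. In the stronger 50% of all reproducible peaks, with signals of 126 or more, it was in 16.5% of members, which passed the threshold neither against divergent (13.6%, exact test, adjusted p = 0.667) nor against weak windows (14.6%, adjusted p = 0.373). X members held it in 35.8% and autosomal members in 22.6%. Where it occurred on a single strand, 44 windows had it on the strand of the gene and 85 on the other, as also in weak windows, where 30.9% were on the gene's strand.

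GGCCAC was commoner at members than at weak peaks, and its difference from divergent promoters did not pass the threshold. This word came from the same earlier scan, so its levels are descriptions too. It stood in 92 member windows (17.2%, 14.2 to 20.6), in 18.6% of divergent windows (14.6 to 23.4) and in 3.70% of weak windows. The difference from weak peaks was 13.5 points (exact test, adjusted p = 1.98e-27), while the one from divergent summits did not pass (1.38 points lower in members, adjusted p = 0.715). Flanks of the members held it in 0.935% and 1.12%, and 1.67% of all promoter windows did. Strong members carried it more often, with 22.8% of the stronger 268 and 11.6% of the weaker 267, and the median signal was 148 with the word and 122 without. Only 17 members held both GAGAGA and GGCCAC, and 212 held at least 1 of these.

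The TAAT cores bound by homeodomain proteins, searched as TAATTA or TAATGA, were in 20 member windows, or 3.74% (2.43 to 5.70). They were in 5.41% of divergent windows (exact test, adjusted p = 0.369) and in 10.1% of weak windows (adjusted p = 4.34e-07), and flanks of the members held them in 12.3% and 8.79%. All promoter windows held them in 12.4%. The cores were therefore no commoner at member summits than in promoters at large. Their levels are also descriptions, since the cores came from the earlier scan as well. F26F4.8 (302) and R166.2 (233) were the strongest members outside exons and off chromosome I with a core, and the F26F4.8 window had a GC content of 21.8%. The AT-rich words TATAAA and TTTTTT and the GATA-type word GATAAG were likewise scarce. TATAAA was in 3.55% of members, 6.42% of divergent, 9.34% of weak and 12.9% of all promoter windows, and differed from weak windows (exact test, adjusted p = 1.88e-06) but not past the threshold from divergent ones (adjusted p = 0.122). TTTTTT was in 17.6%, against 27.0% of divergent (exact, adjusted p = 0.00535), 29.7% of weak (adjusted p = 2.68e-09) and 45.2% of all promoter windows. GATAAG was in 1.31%, against 1.01%, 2.80% and 4.26% in the same order (exact, adjusted p = 1.00 and 0.0440).

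The GC-rich words CCGCCC and GCGGGA were in 8.04% and 8.22% of member windows and in 2.14% and 2.26% of all promoter windows. CCGCCC was in 13.2% of divergent windows (exact, adjusted p = 0.0468) and 4.93% of weak ones (adjusted p = 0.00438). GCGGGA was in 4.39% of divergent windows (exact, adjusted p = 0.0793) and 4.28% of weak ones (adjusted p = 0.000252). Within 25 bp of the summit the GCGGGA difference from weak windows did not pass (exact test, adjusted p = 0.460). The CCGCCC difference from weak windows was 3.11 points, and it was 1.62 points and did not pass without replicate 2 (exact test, adjusted p = 0.113), nor did it pass in the stronger 50% (0.216) or within 25 bp of the summit (0.0925). That from divergent windows did not pass on autosomes alone (exact test, adjusted p = 0.203), with windows of 500 bp (0.102), in the stronger 50% (0.0613), within 25 bp of the summit (0.738), with intergenic summits alone (0.124) or without repeated sequences (0.114). GC content was higher in members than in either comparison set, and its part in the word differences was not tested.

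The recurrent runs of 10 bases were picked by their counts in the member windows, so their shares there are descriptions. GAGACGCAGA stood in 32 members (5.98%), 9 divergent (3.04%) and 108 weak windows (2.50%), and in 0.571% of all promoter windows. The members that held it had a median signal of 113. TGGCCTAGAA stood in 23 members (4.30%), 21 divergent (7.09%) and 27 weak windows (0.624%), with a median signal of 215 among the members. TCCGAGAGGA stood in 21 members (3.93%), 14 divergent (4.73%) and 10 weak windows (0.231%). The 21 members had a median signal of 241, and 20 of them lay among the stronger 268 members. None of the 21 was on X, whereas 8 of the 32 with GAGACGCAGA were. GGCCACGGCC stood in 17 members (3.18%), 14 divergent (4.73%) and 5 weak windows (0.116%). The members included the survivin-related gene bir-1 and the histone methyltransferase gene set-2. AGGAGTACAC stood in 15 members (2.80%), 18 divergent (6.08%) and 9 weak windows (0.208%). Apart from GAGACGCAGA, each run thus had a higher share in divergent windows than in members, which was not tested. The AGGAGTACAC run was found together with TCCGAGAGGA in 12 members, among them R166.2, whose window is printed above. TCCGAGAGGA ends with the bases AGGA that begin AGGAGTACAC, and in the cyn-10 window above they overlap as 1 longer sequence. The 12 members therefore need not hold separate elements, and how many overlap in this way was not counted. The runs thus marked members of different strength, with GAGACGCAGA among weaker ones and TCCGAGAGGA among stronger ones. No member held both GAGACGCAGA and TCCGAGAGGA, and 92 members held at least 1 of the 5 runs. All promoter windows held TGGCCTAGAA in 0.215%, TCCGAGAGGA in 0.0851%, GGCCACGGCC in 0.0451% and AGGAGTACAC in 0.0651%.

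Some member windows hold sequence that occurs more than once in the genome, where short reads can be hard to place. At least 1 run of 24 bases was repeated exactly elsewhere in 63 member windows (11.8%), in 10.1% of divergent and in 11.8% of weak windows, and neither difference passed the threshold (exact tests, adjusted p = 0.616 and 1.00). Among the 15 strongest members 6 held such a run, and both eel-1 windows, rps-24 and Y32B12B.4 held one with 10 or more copies. K12H4.5 and M01F1.9 held none. Of the 21 members with TCCGAGAGGA, 11 held a repeated run, as did 10 of the 15 with AGGAGTACAC.

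Genes with a member summit were counted in the 23 gene groups below. These were matched by symbol, and each share is set beside the 2.65% of all genes and the 13.2% among the 3997 genes with any pooled summit under the location rule. No test was made of the groups. In translation, 8 of 81 cytosolic ribosomal protein genes had a member, among them rps-24 (189.7 in replicate 1, 234 in replicate 2), rpl-3 (154, 173) and rpl-35 (87.4, 119). Of 42 translation factor genes 5 did (11.9%), including the subunit genes eif-3.B (139, 184), eif-3.I (94.8, 106) and eif-3.C (74.4, 87.7) of initiation factor eIF3. The aminoacyl-tRNA synthetase genes kars-1 (92.6, 135) and yars-2 (87.0, 129) were 2 of 32, and mrpl-15 and mrpl-55 were 2 of 70 mitochondrial ribosomal protein genes, a share of 2.86% near that of all genes.

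In cell division, 13 of 115 genes (11.3%) had a member. They included sas-4 (181, 223), the chromosomal passenger gene bir-1 (159, 149), the cohesin loader gene scc-2 (105, 114), the gamma-tubulin gene tbg-1 (73.0, 85.7) and the CDK inhibitor gene cki-1 (73.7, 66.8). DNA replication and repair had 7 of 80, led by the DNA polymerase epsilon gene pole-1 (98.5, 118) and the ribonuclease H gene rnh-2 (97.2, 107). Matching by symbol also placed the Paf1 complex gene cdc-73 (89.2, 91.5), cdc-48.1 and cdc-5L among the 7. The count is therefore not one of replication and repair genes alone. Histone-modifying enzymes had 8 of 90, among them the histone H3 lysine 4 methyltransferase gene set-2 (135, 156) and the MYST acetyltransferase gene mys-1 (126, 132), while histone genes had 2 of 82, his-37 and hil-7. At hil-7 a further reproducible summit of 151 was left out, since it lay 193 bp from a small RNA gene, whereas the member of 103 lay 395 bp away. Division and chromatin enzyme genes thus stood above the share of all genes and histone genes near it. Divergent reproducible summits, which these shares leave out, lay at 16 division, 7 chromatin enzyme and 6 histone genes.

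In protein turnover and folding, 6 of 55 ubiquitin enzyme and cullin-related genes had one, led by ufd-3 (132, 149.7) and ufd-2 (98.8, 78.3), with 2 of 33 proteasome genes (pbs-3 and pas-1) and 6 of 70 chaperone genes, led by the prefoldin gene pfd-5 (131, 199), bag-1 (137, 185) and the Hsc70 gene hsp-1 (98.8, 70.0). Splicing genes had 2 of 59, usp-4 and rsp-8, a share of 3.39%. Energy metabolism had 8 of 81, with cox-5A (72.6, 92.0), cox-5B (52.9, 80.0) and the oxoglutarate dehydrogenase gene ogdh-1 (51.8, 76.1). Endosomal sorting and the vacuolar ATPase had 9 of 90, with the ESCRT gene vps-25 (63.6, 82.7), the ATPase subunit gene vha-12 (45.1, 58.0) and the endocytosis gene rme-4 (59.2, 44.4). Of these groups splicing lay closest to the share of all genes, but 12 of its 59 genes had a divergent reproducible summit, which is not counted in that share.

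Tissue-specific and regulatory genes were represented unevenly. Body wall muscle genes had the highest share of the 23 groups, with 7 of 38 (18.4%), all at moderate or low signals between 164 and 87.3. They were unc-112 (86.3 in replicate 1, 71.4 in replicate 2), the kindlin gene, unc-60 (63.7, 56.9), unc-15 (39.1, 56.3), which encodes paramyosin, unc-78 (50.2, 46.3), the integrin-linked kinase gene pat-4 (47.1, 42.0), the obscurin-related gene unc-89 (50.2, 40.4) and the actin gene act-4 (31.3, 55.8). As many as 27 of the 38 had some pooled summit, 0 had a divergent reproducible one, and 7 of 27 is 25.9%. By that measure, among genes with any pooled summit, muscle was not highest. Shares were higher for translation factors (38.5%), cell division (35.1%), ubiquitin enzymes (33.3%) and ribosomal proteins (30.8%). They were also higher for the DNA replication group as matched by symbol (30.4%), the respiratory chain and citric acid cycle (28.6%), chaperones (27.3%) and endosomal sorting (26.5%). Pan-neuronal and synaptic genes had 3 of 31, the endocytic adaptor gene ehs-1 (74.1, 93.8), the liprin gene syd-2 (81.6, 79.6) and the macoilin gene maco-1 (49.5, 58.5). Among transcription factor genes, 1 of 95 homeobox genes (1.05%) had a member, the ONECUT gene ceh-39 (57.7, 62.5). So did 5 of 269 nuclear hormone receptor genes (1.86%), led by nhr-48 (78.7, 85.3). Of 72 bHLH, T-box, forkhead and SOX genes 1 did (1.39%), mdl-1 (48.0, 66.1). These shares were below the 2.65% of all genes, but they rest on few members and were not tested. Yet 30 of the 95 homeobox genes had some pooled summit under the location rule, so that 3.33% of those had a reproducible one, beside 13.2% of all such genes. The peptide hormone gene ins-39 (77.7, 57.3) was the single one among 145 neuropeptide and insulin-like genes. There was 0 among 176 cuticle collagen genes, 0 among 1292 chemoreceptor genes and 0 among 37 genes of the pharynx, where ceh-2 itself is known to act. For so small a group, 0 is near the 2.65% of all genes, and 1 pharyngeal gene had a member with the longest promoter windows tried. Chemoreceptor genes had 1 without replicate 2. These groups had some weaker pooled summit at 31, 62 and 12 genes.

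**Figure D5:**
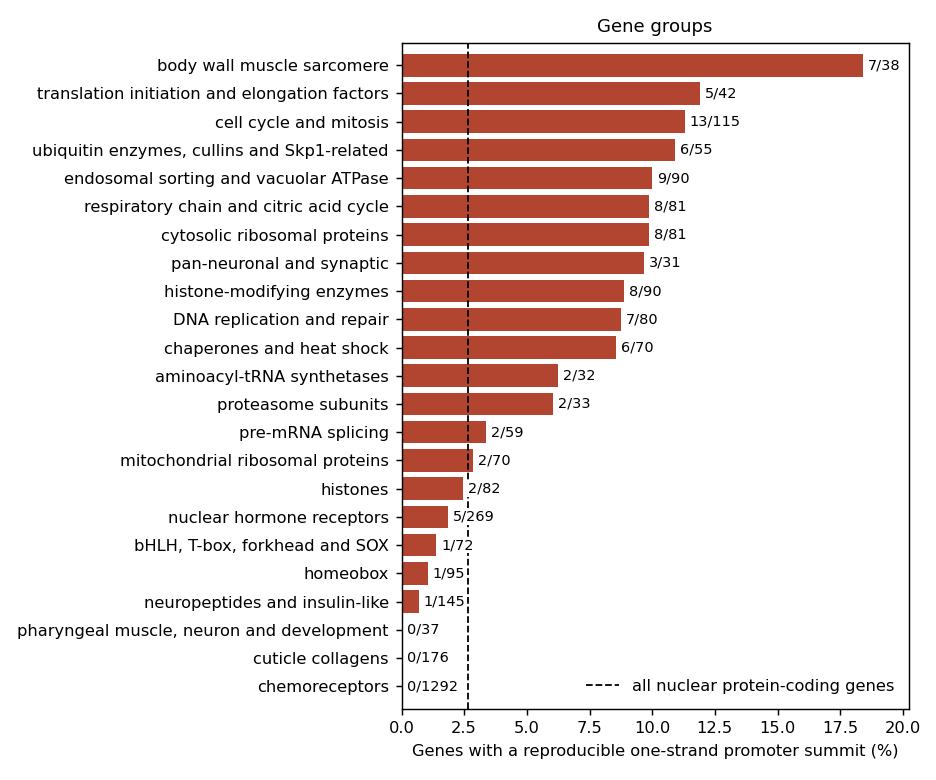
Share of genes (%) with a one-strand member summit in each of the 23 gene groups, with counts beside the bars and a dashed line at the 2.65% of all nuclear protein-coding genes. Body wall muscle genes (7 of 38) are at the top, and collagen, chemoreceptor and pharyngeal genes have none.

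The ceh-2 gene was not among the members. A reproducible summit with a signal of 224 lay 783 bp upstream of ceh-2, at position 6051234 of chromosome I and in a window of that gene alone, but inside a tRNA gene, so that the distance rule left it out. In all, 54 one-strand summits and 11 divergent ones were left out for lying within 300 bp of a tRNA, snoRNA or snRNA gene. The nearest ones kept were at W06H8.6 (371 bp) and hil-7 (395 bp), and the nearest ones left out were at F37F2.2 (273 bp) and ippk-1 (234 bp, signal 394).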

How the data were processed

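ChIP-seq peak lists of 2 replicates on ce11 were used, and the ce10 lists were not. Relaxed lists were made by the authors on each replicate with a control and on both together, per the file headers, and they derived the optimal set from them by IDR. The deposited columns used were the peak signal, in the authors' own units, and the −log10 q-value, which was read but not used to order peaks. Both come from the authors' peak caller. Its name, the aligner, the filters and the threshold of the IDR step were not given in the sources used here. Mitochondrial peaks (23 of 1453) were left out.

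Starts came from Ensembl release 115 for WBcel235, the assembly of ce11, and bases from the RefSeq genome of that assembly. Summits were taken 1-based. Each member took the signal of the strongest replicate peak overlapping it by 1 bp. Words were searched on both strands within 50 bp of the summit, and shares were compared by Fisher's exact test, two-sided, with p-values adjusted after Benjamini and Hochberg over the 8 words and the position share, with a threshold of 0.05. Tests of annotation classes, X and repeated 24-mers, and the settings with intergenic summits, autosomes or no repeated 24-mer, were added after seeing the data. The recurrent runs are the 5 most frequent 10-mers of the member windows that share no run of 6 bases.

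Members and lists were chosen with earlier results of these data known. GAGAGA and GGCCAC and the TAAT cores came from an earlier scan of the same peaks, so their levels are no independent evidence. Named genes are the 15 strongest members, up to 3 per gene group by signal, ceh-2, the peaks next to the thresholds, the 3 largest rank gaps in each direction, and up to 4 strongest windows per word off chromosome I and outside exons. Of the word windows, 3 or fewer are printed. Those printed for GAGAGA leave out K12H4.5 and T13C5.6, which held it at higher signals. Other genes, including further members of the muscle and cell division groups, those named for a pair of summits, a recurrent run, an intron, X or a downstream summit, were chosen after their values were seen. Alternatives were other promoter windows and starts, other small RNA distances, stronger peaks, each replicate alone, other position limits and other sequence windows. The word test was checked on simulated data. Tests were run with scipy 1.17.1 and statsmodels 0.14.6 under Python 3.11.15, tables were handled with pandas 2.3.3 and numpy 2.4.6, and plots were drawn with matplotlib 3.10.9.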

Additional observations from a re-analysis of the deposited data

How the results depend on the processing

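The share of nuclear reproducible peaks that met the rule was 37.4%, and it was 34.2% with windows of 500 bp upstream and 33.4% with the most upstream start of each gene alone. Without replicate 1 or replicate 2 it was 36.8% and 36.9%, with the strongest peaks of the remaining replicate in place of the reproducible set. In the stronger 50% of peaks, rho between the replicates was 0.771, 5 of 8 words differed from weak peaks in place of 8, and 0 of 8 from divergent promoters in place of 3. In that setting 3 of the 8 words, GAGAGA and CCGCCC and TTTTTT, lost their calls against divergent promoters. With sequence windows of 25 bp either side these counts were 5 and 1. The position difference from weak peaks was 4.13 points with intergenic summits alone, and it kept its call in the other settings tried. Among the values of single words and groups, 216 kept their side of the threshold or stayed within 1.5 times, 19 calls were lost, 1 was gained and 16 group counts moved. No difference that passed the threshold changed sign. Differences from divergent promoters that had not passed did, and none of them passed. GGCCAC was at 0.276 points with 500 bp windows and 1.56 without replicate 1, in place of -1.38. TAAT cores were at 0.163 without replicate 1, in place of -1.67. TATAAA was at 1.11 with 25 bp, in place of -2.87. GATAAG was at -0.124 and -0.639 without replicate 1 and 2 and at -0.762 with 100 bp either side, in place of 0.295. With 1 replicate left out, 7 to 8 words differed from weak peaks and 3 to 4 from divergent promoters, and the position differences were 12 to 13.1 points from weak peaks and -32.9 to -31.1 points from divergent promoters. No paired analysis was possible because the labels give 1 group.

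The depth is unknown, the signal scale is not given, and p-values over peaks do not measure the spread between replicates. Small counts limit the gene groups, where 1 or 2 members decide a share.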
